A study of Mus musculus with 46 samples.

Results

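The TET dioxygenases and the proteins that read or repair methylated CpG were followed across mouse germline stem cells, the pluripotent lines derived from them, and embryonic and induced pluripotent stem cells. The genes were taken by symbol from the probe annotation: Tet1, Tet2 and Tet3, Tdg, and Mbd1, Mbd2, Mbd3 and Mbd4, which are 8 of the annotated genes. A single-gene probe set was present for 7 of them among the 19938 genes measured. Every Tdg probe set is also annotated to a Tdg pseudogene, so no value is given for Tdg. Where a gene had several probe sets, the one with the highest mean was used.

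TET enzymes oxidise 5-methylcytosine to 5-hydroxymethylcytosine and further to forms that Tdg, a DNA glycosylase, can cut out, after which base excision repair restores an unmethylated cytosine. The methyl-CpG-binding domain proteins recognise methylated CpG. Mbd1 and Mbd2 act as transcriptional repressors, Mbd3 is a subunit of the NuRD remodelling and deacetylase complex that binds methylated DNA poorly in mammals, and Mbd4 is a glycosylase for mismatches that arise at methylated CpG. In mouse embryonic stem cells Tet1 and Tet2 are known as the main TET enzymes, while Tet3 is known for the oocyte and zygote.

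Each of 23 lines was measured as 2 cultures on whole-transcript arrays. Multipotent germline stem cells (mGS) are ES-like cells obtained from germline stem cells (GS), which are cultured spermatogonial stem cells. There were 4 induced routes of 3 lines each, all with lentiviral p53 knockdown: with Dnmt1 knockdown (Dnmt mGS), with Dmrt1 knockdown (Dmrt mGS), with Sox2 (Sox2 mGS) and with Oct4 (Oct4 mGS). A further 2 mGS lines arose spontaneously, and there were 3 GS lines, 3 iPS lines (iPS 1, 2 and 5) obtained by retroviral delivery of 4 factors (Oct4, Sox2, Klf4 and c-myc), and 3 ES lines (R1, B6-6 and BRC1). All lines other than ES had a DBA/2 background and a GFP transgene. ES R1 is from the strain 129X1/SvJ crossed with 129S1/SV-+p+Tyr-cKitlSl-J/+, and 1 of its 2 cultures carries the name R2 in its description but R1 in its title, by which it was grouped. B6-6 is C57BL/6J and BRC1 is (B6xDBA2)x129, so strain and cell type cannot be told apart in comparisons with ES. GS were grown in low-serum StemPro-34 medium with GDNF and bFGF and all other lines in serum with LIF, so medium and cell state cannot be told apart in comparisons with GS. All were grown on mouse embryonic fibroblast feeders, which were reduced by plating on gelatin. Nothing in the labels says that lines of a route came from separate animals, and p-values measure the spread between these lines.

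The median intensity of an array was 264.84 for culture 1 of Oct4 mGS 1 and 215.38 to 242.47 for the other arrays. The 95th percentile of 1027 olfactory receptor genes, 161, served as a background level. The summed intensity of 10 pluripotent cell markers was 17155 to 20846 in Sox2 mGS, wholly below iPS at 28193 to 35632, and 18446 to 31243 in Oct4 mGS, where GS had 2485 to 4744 and all 20 other lines 17155 to 38181. The sum of 10 spermatogonial markers was 45235 to 51097 in GS and 2841 to 4448 elsewhere. The sum of 14 feeder and fibroblast markers was 27520 to 38950 in Sox2 mGS and 12449 to 30281 in Oct4 mGS, against 5207 to 7709 in iPS. It ran up to 25288 in Dnmt mGS, 20524 in Dmrt mGS, 18640 in spontaneous mGS and 21128 in ES, each overlapping Oct4 mGS. Dnmt1 was at 620 and 647 in Dnmt mGS 1 and 3 but at 2752 in the line labelled Dnmt mGS 2, where the other induced routes had 1934 to 2772. For the 7 genes, called differences of that route from iPS or the other routes, and some from GS, are therefore also given without it. Sox2 was at 1253, 1302 and 1303 in the Sox2 mGS lines, against 4071 to 4627 in iPS, so these lines showed no excess of the factor they are named for. Oct4 (Pou5f1) was at 4649 to 5248 in Oct4 mGS against 4539 to 5234 in iPS. Whether either probe set reads the added copy was not tested. Dmrt1 was at 191 to 554 in Dmrt mGS, overlapping iPS at 230 to 572, where GS had 3379 to 4220. GS 1 stood apart from GS 2 and 3, with a feeder sum of 14190 against 5014 and 3936, Sox2 at 1807 against 331 and 293, and Pou5f1 (Oct4) at 1000 against 365 and 381. Each difference is a log2 ratio of the group named first to the one named after it, with limma's standard error (±), and a gene is called at an adjusted p under 0.05.

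Start-site windows of the TET genes are shown because these genes divided in direction between GS and the pluripotent lines. RefSeq windows of GRCm38.p6, from 250 bases before to 50 bases after a listed start, were matched by symbol for 6 of the 8 genes. Those shown lie on the minus strand at chr10:62887275-62887574 for Tet1, chr3:133544341-133544640 for Tet2 and chr6:83441629-83441928 for Tet3. The listed start lies 145 bases inside the 5′ end of the annotated gene for Tet1, 746 bases inside it for Tet2 and 15530 bases inside it for Tet3. The Tet2 and Tet3 windows are therefore wholly internal to their genes and do not cover the outermost starts. Capitals mark each CG, the dinucleotide whose cytosine is the substrate of these enzymes.
Tet1: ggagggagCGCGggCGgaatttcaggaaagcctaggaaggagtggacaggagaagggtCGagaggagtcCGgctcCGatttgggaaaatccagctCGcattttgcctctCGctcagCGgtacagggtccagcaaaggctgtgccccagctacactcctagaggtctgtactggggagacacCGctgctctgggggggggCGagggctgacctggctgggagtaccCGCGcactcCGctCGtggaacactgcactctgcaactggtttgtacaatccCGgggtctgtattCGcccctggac
Tet2: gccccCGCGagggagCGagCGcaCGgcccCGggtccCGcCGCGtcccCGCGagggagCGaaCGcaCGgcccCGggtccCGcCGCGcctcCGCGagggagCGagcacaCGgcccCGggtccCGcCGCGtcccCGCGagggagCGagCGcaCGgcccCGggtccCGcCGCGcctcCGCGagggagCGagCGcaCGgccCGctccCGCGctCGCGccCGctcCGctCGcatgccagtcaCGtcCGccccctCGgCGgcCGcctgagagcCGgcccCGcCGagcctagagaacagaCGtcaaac
Tet3: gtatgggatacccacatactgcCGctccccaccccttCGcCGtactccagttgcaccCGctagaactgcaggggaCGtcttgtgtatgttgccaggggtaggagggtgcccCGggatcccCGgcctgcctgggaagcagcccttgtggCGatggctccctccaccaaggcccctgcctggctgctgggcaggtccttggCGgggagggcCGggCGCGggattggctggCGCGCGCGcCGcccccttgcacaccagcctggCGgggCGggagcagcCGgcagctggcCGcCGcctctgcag

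The internal Tet2 window held 57 CG, and 0.152% of 32851 RefSeq windows of this length held as many. The Tet1 window held 17 CG and the internal Tet3 window 22, counts that 31.4% and 23.1% of windows reached, and the median window held 7. The octamer ATTTGCAT, searched on both strands, was in none of the 6 windows, and 1.735% of all windows hold it. The SOX core ACAAT, also searched on both strands, was found 1 time in the Tet1 window and not in the other 5, and 31.02% of all windows hold it.

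Tet1, whose product oxidises 5-methylcytosine at CpG-rich regions, was bright in every pluripotent line and dim in GS. Its intensity was 5951, 5412 and 6259 in Dnmt mGS 1 to 3, 5618, 5569 and 6206 in the Dmrt mGS lines, 4581, 3499 and 3895 in the Sox2 mGS lines and 4413, 3493 and 5274 in Oct4 mGS. It was 5816 and 5456 in spontaneous mGS, 147, 175 and 102 in GS, 6114, 5372 and 5530 in iPS, and 5412, 5291 and 4750 in ES. All 20 lines outside GS lay above all GS lines. The GS mean of 137.8 was below the background level, so the fold is a bound: Tet1 was at least 36.4-fold higher in Dnmt mGS, 35.9-fold in Dmrt mGS, 24.6-fold in Sox2 mGS, 26.9-fold in Oct4 mGS and 35.0-fold in spontaneous mGS than in GS. Fitted differences were 4.85 ± 0.16 to 5.41 ± 0.16 over the 5 mGS groups, with adjusted p of at most 1.89e-13. GS was below ES by at least 31.9-fold (-5.22 ± 0.16, adjusted p = 4.39e-14) and below iPS by at least 35.2-fold (-5.36 ± 0.16, adjusted p = 2.78e-14).

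In order of mean level Tet1 ran Dnmt mGS, Dmrt mGS, iPS, mGS, ES, Oct4 mGS, Sox2 mGS and GS. Lines of neighbours in that order overlapped except between mGS and ES and between Sox2 mGS and GS. Sox2 mGS averaged 3967 against 5663 in iPS (-0.51 ± 0.16, adjusted p = 0.0311), and no Sox2 mGS line reached an iPS line. That call was lost without any of iPS 1, iPS 2, iPS 5, Sox2 mGS 2 or Sox2 mGS 3, with adjusted p up to 0.112. Sox2 mGS was also below the mean of the other routes (-0.41 ± 0.13, adjusted p = 0.0473), a call lost without 18 of the 23 lines. Oct4 mGS averaged 4332, with a difference from iPS of -0.39 ± 0.16 that was not called (adjusted p = 0.112). The 3 probe sets of Tet1 gave GS means of 64.6, 116 and 138 and iPS means of 3794, 4778 and 5663.

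**Figure D1:**
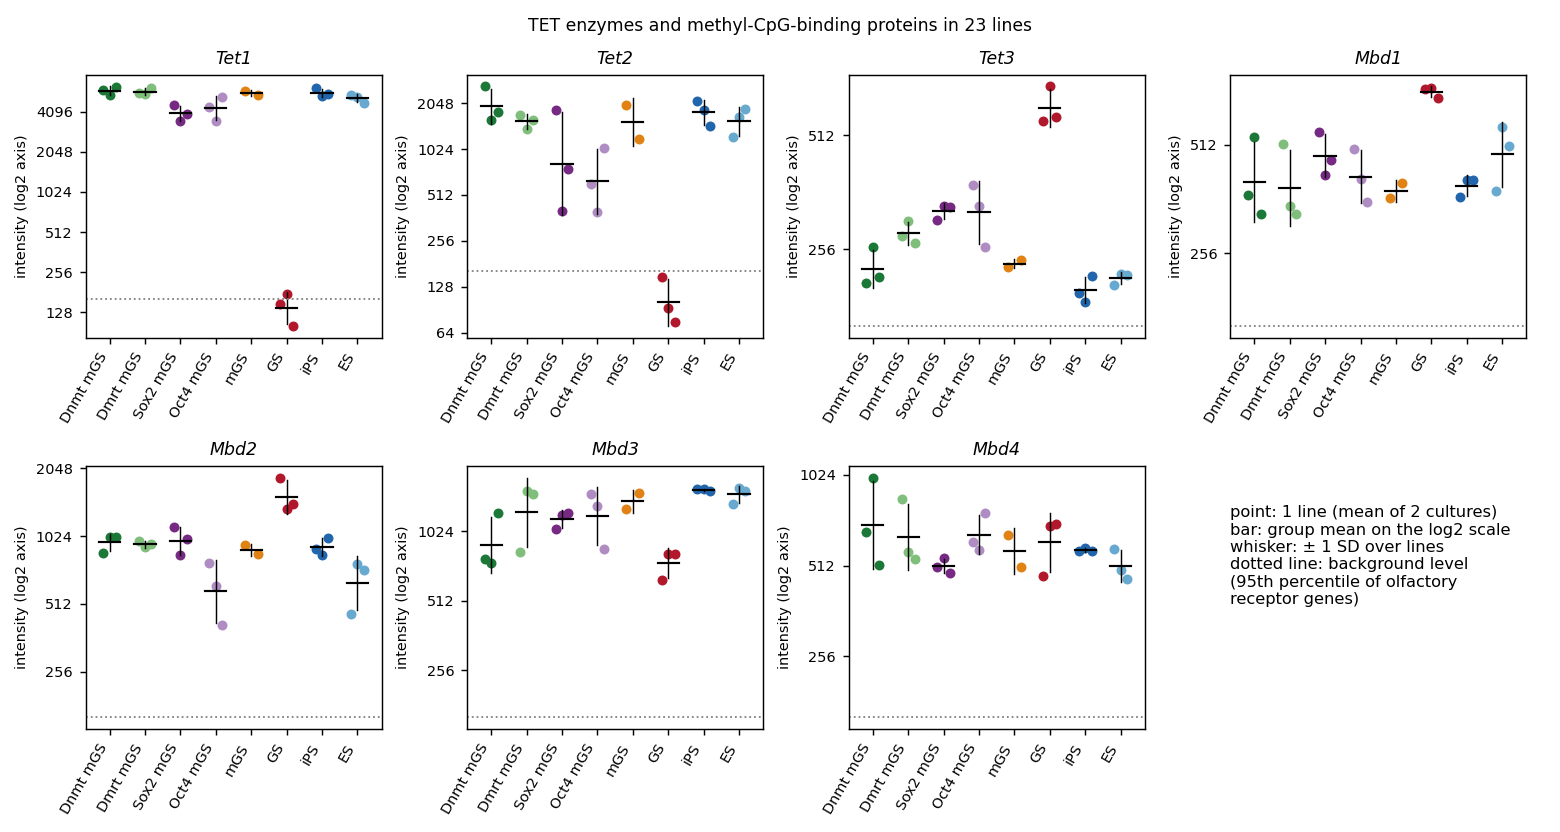
Intensity (log2 axis) of the 7 measured genes in 23 lines, by group; points are lines (means of 2 cultures), bars are group means on the log2 scale, whiskers ± 1 SD over lines, and the dotted line is the background level of 161. GS lines stand apart from the 20 other lines for Tet1 and Tet2, which were lower in GS, and for Tet3, Mbd1 and Mbd2, which were higher in GS. The share of all genes that separate in this way was not computed. In comparisons with GS limma called 41.6% to 54.0% of all genes.

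Tet2, a TET enzyme without the CXXC DNA-binding domain that Tet1 and Tet3 have, was also lower in GS and spanned 2.73 on the log2 scale over the 20 other lines, where the other 6 genes spanned 0.80 to 1.44. Its intensity was 2633, 1584 and 1786 in Dnmt mGS 1 to 3, 1724, 1380 and 1598 in the Dmrt mGS lines, 1854, 399 and 753 in the Sox2 mGS lines and 603, 395 and 1047 in Oct4 mGS. It was 1984 and 1194 in spontaneous mGS, 149, 93.1 and 74.6 in GS, 2108, 1856 and 1459 in iPS and 1225, 1668 and 1866 in ES. All 20 lines outside GS again lay above all GS lines, while Sox2 mGS lines spanned 399 to 1854. The GS mean of 101 was below background, and Tet2 was higher than in GS by at least 12.1-fold in Dnmt mGS, 9.69-fold in Dmrt mGS, 5.11-fold in Sox2 mGS, 3.91-fold in Oct4 mGS and 9.55-fold in spontaneous mGS. Fitted differences were 2.64 ± 0.43 (Oct4 mGS) to 4.27 ± 0.43 (Dnmt mGS), with adjusted p of at most 7.51e-05. GS was lower than ES by at least 9.70-fold (-3.95 ± 0.43, adjusted p = 7.28e-07) and lower than iPS by at least 11.1-fold (-4.14 ± 0.43, adjusted p = 3.80e-07).

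Between pluripotent groups, Tet2 averaged 630 in Oct4 mGS against 1787 in iPS (-1.50 ± 0.43, adjusted p = 0.0311), with all 3 Oct4 mGS lines below all iPS lines. The call was lost without iPS 1, iPS 2, iPS 5, Oct4 mGS 1 or Oct4 mGS 2, with adjusted p up to 0.122, and when only the groups compared were fitted (adjusted p = 0.0562). Sox2 mGS averaged 823, and its difference from iPS of -1.12 ± 0.43 was not called (adjusted p = 0.0683). Dnmt mGS averaged 1953 and was above the mean of the other routes by 1.07 ± 0.35 (adjusted p = 0.0443). Without the line labelled Dnmt mGS 2 that difference was 1.22 (adjusted p = 0.0822), and the call held only when the line left out was ES R1, mGS 1, mGS 2, GS 1, GS 3, Dmrt mGS 1, Sox2 mGS 1 or Oct4 mGS 3. It was also lost when only the groups compared were fitted (adjusted p = 0.100). The order of mean levels was Dnmt mGS, iPS, ES, Dmrt mGS, mGS, Sox2 mGS, Oct4 mGS and GS, and lines of all neighbours overlapped except Oct4 mGS and GS.

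Tet3 ran the other way. Its intensity was 209, 259 and 216 in Dnmt mGS 1 to 3, 277, 305 and 266 in the Dmrt mGS lines, 305, 334 and 331 in the Sox2 mGS lines and 379, 334 and 260 in Oct4 mGS. It was 230.0 and 240 in spontaneous mGS, 557, 689 and 572 in GS, 196, 186 and 218 in iPS and 207, 221 and 219 in ES. All 20 lines outside GS lay below all GS lines, and the iPS lines were little above the background level. Tet3 fell by 1.41 ± 0.12 in Dnmt mGS relative to GS, by 1.10 ± 0.12 in Dmrt mGS, by 0.90 ± 0.12 in Sox2 mGS, by 0.91 ± 0.12 in Oct4 mGS and by 1.36 ± 0.13 in spontaneous mGS, with adjusted p of at most 7.76e-06. GS was higher than ES by 1.49 ± 0.12 (adjusted p = 1.69e-08) and higher than iPS by 1.59 ± 0.12 (adjusted p = 6.29e-09).

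Sox2 mGS and Oct4 mGS had more Tet3 than iPS. Sox2 mGS averaged 323 and iPS 200 (0.69 ± 0.12, adjusted p = 0.00107), and Oct4 mGS averaged 321 (0.68 ± 0.12, adjusted p = 0.00347). All lines of both routes lay above all iPS lines, and both calls held without any single line. The Oct4 mGS call was lost when only the groups compared were fitted (adjusted p = 0.0535). Dmrt mGS averaged 282 (0.50 ± 0.12, adjusted p = 0.0609, not called) and Dnmt mGS 227 (0.18 ± 0.12, adjusted p = 0.403, not called). Dnmt mGS was below the mean of the other routes by -0.44 ± 0.10 (adjusted p = 0.00869), at -0.54 without the line labelled Dnmt mGS 2 (adjusted p = 0.0106), and the call was lost without Dnmt mGS 1 (adjusted p = 0.077). Feeder marker sums were 36880, 27520 and 38950 in Sox2 mGS 1 to 3 and 30280, 24340 and 12450 in Oct4 mGS 1 to 3, against 5207, 7527 and 7709 in iPS, with 14, 14, 14, 14, 14 and 13 of the 14 markers above background in the 6 lines against 11, 12 and 12 in iPS. The pluripotent marker sum was 20850, 17660 and 17150 in Sox2 mGS 1 to 3 and 21190, 18450 and 31240 in Oct4 mGS 1 to 3, against 35630, 33780 and 28190 in iPS. In the 2 routes 4 and 1 of these 10 markers were called lower than in iPS, beside 1839 and 683 of all 19938 genes. Sox2 and Pou5f1 are themselves among these pluripotent markers. Over the 20 lines outside GS the mean log2 level of these markers had a Pearson r of 0.858 with Tet1, 0.868 with Tet2 and -0.863 with Tet3, and the feeder marker level had -0.591, -0.526 and 0.606. The part of either in these Tet1, Tet2 and Tet3 differences was not tested, and fewer cells of a type and less RNA per cell cannot be told apart. The second probe set of Tet3 averaged 280 in Sox2 mGS, 281 in Oct4 mGS, 551 in GS and 148 in iPS, the last below the background level.

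**Figure D2:**
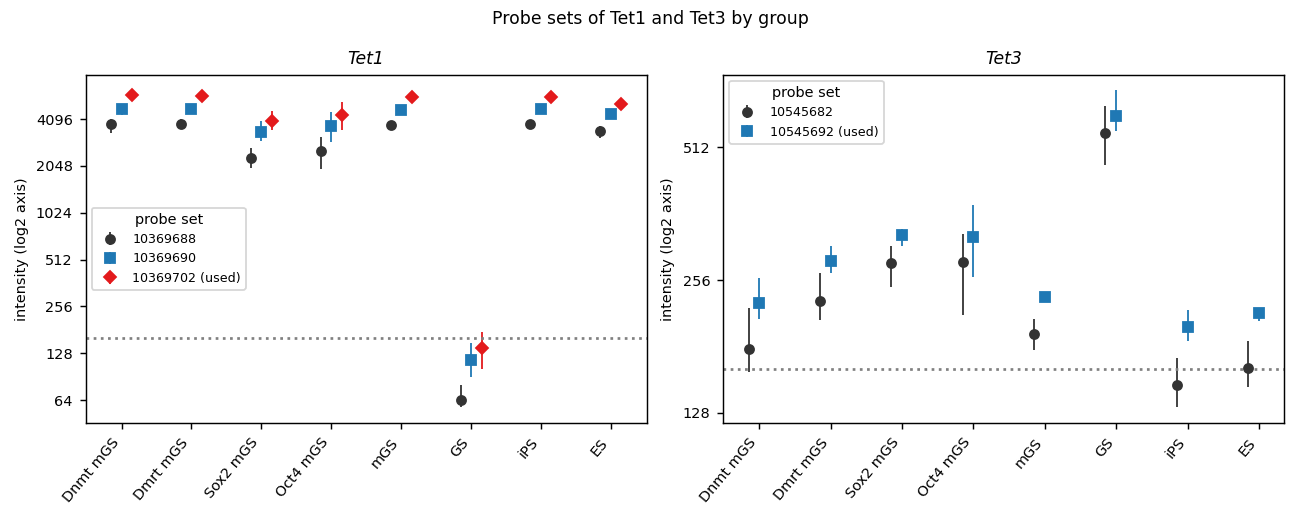
Mean intensity (log2 axis) by group for the 3 probe sets of Tet1 and the 2 of Tet3; whiskers run from the lowest to the highest line, and the dotted line is the background level of 161. Each Tet1 probe set is lowest in GS (means 64.6, 116 and 138) and each Tet3 probe set is highest in GS (551 and 604).

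Mbd1 and Mbd2, the repressor members, were higher in GS than in every other line. Mbd1 was at 730, 736 and 692 in GS, and between 330 and 574 in the other 20 lines. Mbd2 was at 1857, 1345 and 1421 in GS and between 412 and 1118 elsewhere. Mbd1 fell relative to GS in all 5 mGS groups, by 0.59 ± 0.19 in Sox2 mGS (adjusted p = 0.0189) to 0.91 ± 0.22 in spontaneous mGS (adjusted p = 0.00232). GS was higher than ES by 0.58 ± 0.19 (adjusted p = 0.0215), a call lost without ES R1 or GS 2 (adjusted p up to 0.125), and higher than iPS by 0.87 ± 0.19 (adjusted p = 0.00114). Sox2 mGS against GS was not called for Mbd1 without GS 2, Sox2 mGS 2 or Sox2 mGS 3.

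Mbd2 fell relative to GS by 0.64 ± 0.20 in Sox2 mGS (adjusted p = 0.0152), 0.67 ± 0.20 in Dnmt mGS (adjusted p = 0.0112), 0.70 ± 0.20 in Dmrt mGS (adjusted p = 0.00967), 0.78 ± 0.23 in spontaneous mGS (adjusted p = 0.0101) and 1.39 ± 0.20 in Oct4 mGS (adjusted p = 1.97e-05). The Sox2, Dnmt and Dmrt calls were lost without GS 1, the brightest GS line and the one with the high feeder sum, that of Sox2 mGS also without Sox2 mGS 2, and the spontaneous mGS call without mGS 2. Oct4 mGS lines were at 773, 615 and 412, all below the iPS lines at 897, 847 and 1007 (-0.65 ± 0.20, adjusted p = 0.0412). Oct4 mGS also lay below the mean of the other routes by -0.72 ± 0.17 (adjusted p = 0.0446). The call against iPS was lost without 7 of the 23 lines, among them every iPS line, Oct4 mGS 2 and Oct4 mGS 3, and that against the other routes without all but ES R1, ES B6-6, GS 1 and Sox2 mGS 2. Both Oct4 mGS calls were lost when only the groups compared were fitted (adjusted p up to 0.115). The ES lines were also low, at 462, 767 and 721, and iPS were above them by 0.53 ± 0.20, which was not called (adjusted p = 0.276).

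Mbd3, the NuRD subunit, was lower in GS and uneven among the induced lines. It was at 778, 748 and 1237 in Dnmt mGS 1 to 3, 836, 1537 and 1490 in the Dmrt mGS lines, 1045, 1211 and 1225 in the Sox2 mGS lines and 1493, 1322 and 858 in Oct4 mGS. It was at 1278 and 1503 in spontaneous mGS, 630, 818 and 819 in GS, 1560, 1561 and 1529 in iPS and 1346, 1588 and 1532 in ES. Of the 20 lines outside GS, 18 lay above all GS lines, and Dnmt mGS 1 and the line labelled Dnmt mGS 2 were within the GS range. Mbd3 rose relative to GS by 0.73 ± 0.23 in Dmrt mGS (adjusted p = 0.0165), 0.63 ± 0.23 in Sox2 mGS (adjusted p = 0.035), 0.67 ± 0.23 in Oct4 mGS (adjusted p = 0.0259) and 0.89 ± 0.26 in spontaneous mGS (adjusted p = 0.00996). The difference of 0.26 ± 0.23 in Dnmt mGS was not called (adjusted p = 0.368). The Dmrt mGS, Sox2 mGS and Oct4 mGS calls were each lost without GS 1, and also without Dmrt mGS 2 or 3, Sox2 mGS 2 or 3, and Oct4 mGS 1 or 2 in turn, and that of spontaneous mGS without mGS 2. Fitting only the groups compared also ended the Dmrt mGS and Oct4 mGS calls (adjusted p = 0.0713 and 0.0608). GS was lower than ES by -0.98 ± 0.23 (adjusted p = 0.00191) and than iPS by -1.05 ± 0.23 (adjusted p = 0.00101). Dnmt mGS was below iPS by -0.79 ± 0.23 (adjusted p = 0.0469), and at -0.66 (adjusted p = 0.172) without the line labelled Dnmt mGS 2, 1 of 15 lines whose removal ended the call, as did fitting only the groups compared.

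Mbd4, the mismatch glycosylase, was called by limma in 0 of the 17 comparisons and was at an unadjusted p under 0.05 in 1 of them. Its group means lay between 510.1 in ES and 699.6 in Dnmt mGS, with all neighbouring groups overlapping. The interval of the difference was -0.26 to 0.65 for Dnmt mGS against GS and -0.19 to 0.72 for GS against ES. Single lines ranged from 461 in ES BRC1 to 1001 in the line labelled Dnmt mGS 2.

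**Figure D3:**
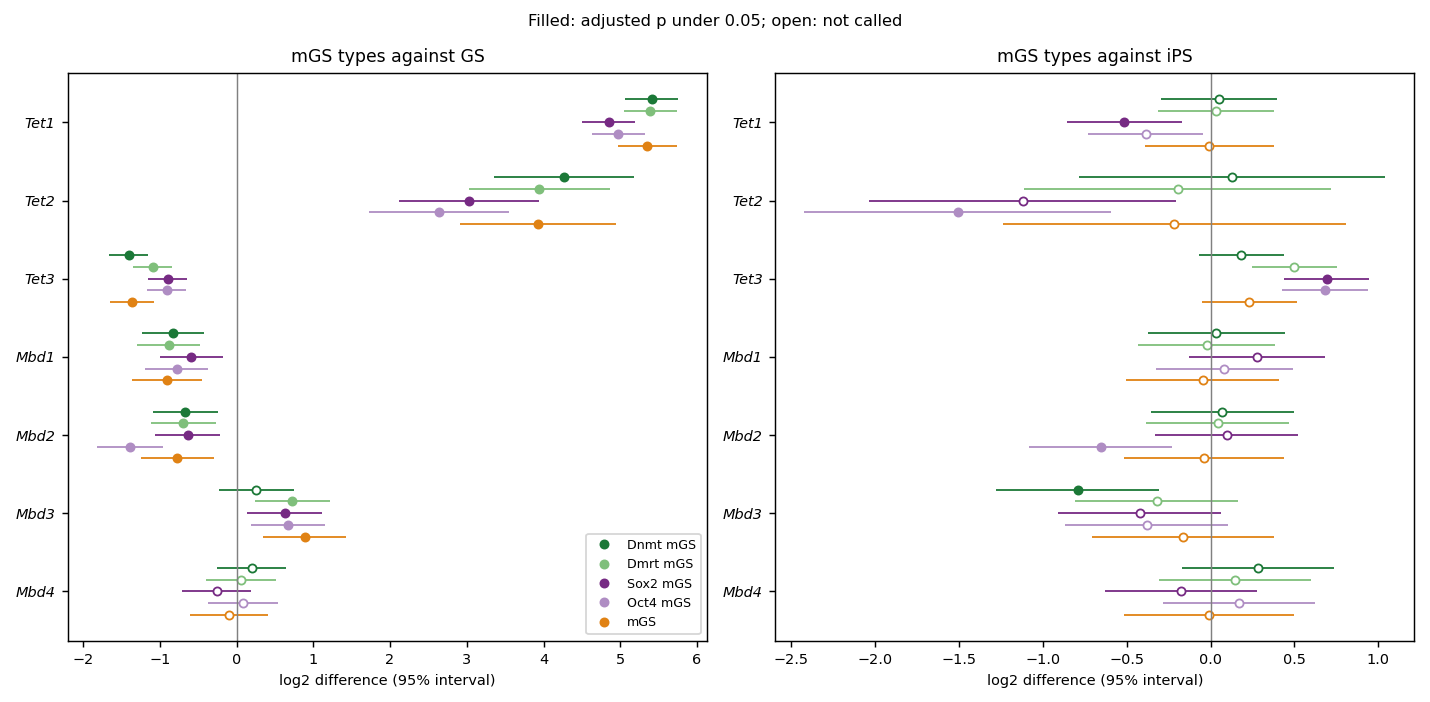
Log2 differences (points) with 95% intervals of the 5 mGS groups against GS (left) and against iPS (right) for the 7 genes; filled points are called at an adjusted p under 0.05. Against GS, Tet1 and Tet2 are higher and Tet3, Mbd1 and Mbd2 lower in every mGS group. Against iPS, 1 of the 7 is called in Dnmt mGS (6.87% of all genes), 2 in Sox2 mGS (23.6%) and 3 in Oct4 mGS (13.8%). In Dmrt mGS (0.848%) and spontaneous mGS (0%) 0 are called.

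Counts of the 7 genes called are set beside the share of all 19938 genes called in the same comparison. In Dnmt mGS against GS 5 were called, where 49.1% of all genes were. Without the line labelled Dnmt mGS 2, the Mbd2 difference from GS was -0.71 (adjusted p = 0.0205). Mbd3 and Mbd4 stayed uncalled there, at 0.39 and -0.07 (adjusted p = 0.229 and 0.811). In Dmrt mGS, Sox2 mGS, Oct4 mGS and spontaneous mGS against GS 6 were called in each, where 41.6%, 44.0%, 42.9% and 43.1% of all genes were. GS against iPS and GS against ES gave 6 each, beside 54.0% and 43.2%. These comparisons share the same 3 GS lines. Against iPS, 1 was called in Dnmt mGS (6.87% of all genes), 0 in Dmrt mGS (0.848%), 2 in Sox2 mGS (23.6%), 3 in Oct4 mGS (13.8%) and 0 in spontaneous mGS. In the last, limma called 0% of all genes, with 225 genes and 0 of the 7 at an unadjusted p under 0.05. Dmrt mGS against iPS had 1 of the 7 at that unadjusted level.

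Between iPS and ES limma called 0 of the 7, with 1 at an unadjusted p under 0.05 and 0.627% of all genes called. Set against the mean of the other 3 induced routes, 2 were called in Dnmt mGS (19.2% of all genes), 0 in Dmrt mGS (0.316%, with 1 of the 7 at an unadjusted p under 0.05), 1 in Sox2 mGS (14.2%) and 1 in Oct4 mGS (1.06%).

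Among the 20 lines outside GS, levels of some pairs moved together. These are descriptions over lines that share routes, feeders and array processing, for 4 pairs chosen from the 21 computed after their values were seen. Tet1 and Tet2 had a Pearson r of 0.848 (Spearman 0.618), and 0.65 without Oct4 mGS 2 and Sox2 mGS 2. Tet2 and Tet3 had an r of -0.742 (Spearman -0.677), and Tet1 and Tet3 -0.70 (Spearman -0.564). Mbd3 and Mbd4 had an r of -0.741 (Spearman -0.459), and -0.635 without Dnmt mGS 1 and the line labelled Dnmt mGS 2. The lines with low Mbd3, Dnmt mGS 1, the line labelled Dnmt mGS 2, Dmrt mGS 1 and Oct4 mGS 3, had Mbd4 at 664, 1001, 849 and 767. Their feeder marker sums were 8885, 4065, 4568 and 12450. Among the remaining lines outside GS, the lowest sums were 5207, 4909 and 6300 in iPS 1, mGS 1 and ES R1, with Mbd3 at 1560, 1278 and 1346. Sox2 mGS 1, with Mbd3 at 1045, had a sum of 36880. Over the 20 lines the feeder marker level had an r of 0.289 with Mbd3 and -0.672 with Mbd4. The part of feeder content in the levels of either gene was not tested.

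**Figure D4:**
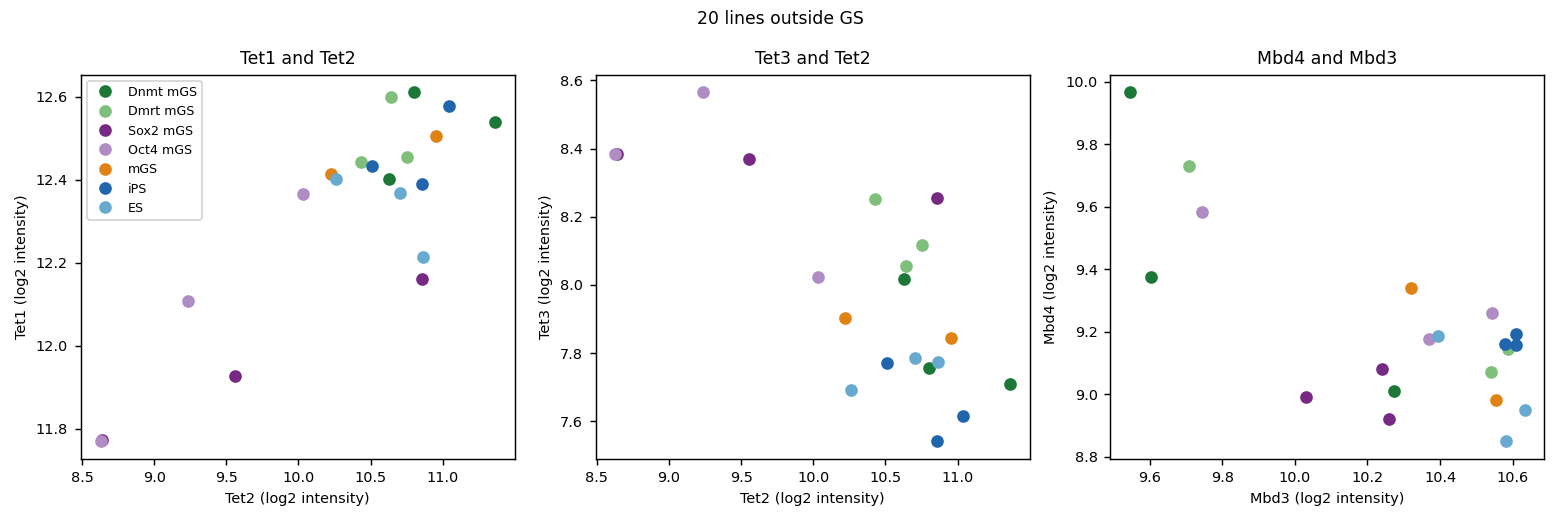
Log2 intensity of gene pairs in the 20 lines outside GS, coloured by group; each point is a line. Tet1 rises with Tet2 (r = 0.848), Tet3 falls with Tet2 (r = -0.742) and Mbd4 falls with Mbd3 (r = -0.741).

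By likeness over all 23 lines among 12748 other genes above background, Tet1 was closest to Etl4 (Pearson r = 0.993), Frrs1 (0.992) and 1700019D03Rik (0.991). Tet2 was closest to Nr0b1 (0.980), an orphan nuclear receptor of ES cells, Gpa33 (0.975) and Dppa5a (0.970). Tet3 was closest to Rftn1 (0.967), Trp53bp1 (0.966) and Zfp612 (0.958). Over the 20 lines outside GS the closest were Lrrc2 (0.936), Dppa5a (0.927) and Twf2 (0.926) for Tet1, Laptm5 (0.952), Skap2 (0.948) and Nr0b1 (0.937) for Tet2, and Rragd (0.947), Clasp1 (0.944) and Arid1b (0.931) for Tet3.

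Genes that work beside these proteins were counted in lists. In GS against ES 26.0% of all genes were higher and 17.2% lower, and the median log2 difference of all genes was 0.09. Of 6 measured further methyl-CpG readers, 2 were higher and 0 lower in GS than in ES (median 0.34). Zbtb33, which encodes the methyl-CpG reader Kaiso, averaged 1827 in GS against 431 in ES (2.08 ± 0.31, adjusted p = 2.0e-05), and Mbd6 differed by 0.61. Of 11 NuRD subunits 3 were higher and 2 lower (median -0.02). The helicase gene Chd3 averaged 774 in GS against 409 in ES (0.92 ± 0.19), and the deacetylase gene Hdac1 averaged 1989 against 3826 (-0.94 ± 0.17). Mta3, another subunit, averaged 1483 in GS against 2550 in ES (-0.78 ± 0.13).

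Of 14 base excision repair genes 5 were higher and 1 lower in GS than in ES (median 0.15). The glycosylase genes Neil1 and Neil2 were called in opposite directions, each with 1 group below background. Neil1 was at 116 in GS against 251 in ES, at least 1.56-fold lower in GS (fitted -1.11 ± 0.17), and Neil2 at 184 in GS against 87.9 in ES, at least 1.14-fold higher in GS (fitted 1.07 ± 0.14). Of 9 TET partners and cofactor enzymes 2 were higher and 4 lower (median 0.04). Idh2, whose product makes the 2-oxoglutarate that TET enzymes use, averaged 124 in GS, below background, against 1701 in ES, at least 10.6-fold lower in GS (fitted -3.77 ± 0.27, adjusted p = 2.87e-09). Cxxc1, a CpG-binding protein gene, averaged 2179 against 800 (1.45 ± 0.11). Of 4 DNA methyltransferase genes 0 were higher and 2 lower (median -1.09), Dnmt3l at 113 in GS against 2802 in ES, at least 17.4-fold lower in GS (fitted -4.63 ± 0.29), and Dnmt3b at 450 against 1670 (-1.89 ± 0.52). Of 6 deaminase and Gadd45 genes 0 were higher and 4 lower (median -1.18), with Apobec3 at 236 in GS against 1237 in ES (-2.39 ± 0.17). Under the alternatives run against ES the number higher in GS was 2 to 4 for the further readers, 2 to 4 for NuRD, 3 to 6 for base excision repair, 1 to 3 for the TET partners and 0 to 1 for DNA methyltransferases. The number lower was 2 to 4 for NuRD, 3 to 4 for the TET partners and 3 to 5 for deaminases and Gadd45. The calls named in these lists against ES held under every alternative run.

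**Figure D5:**
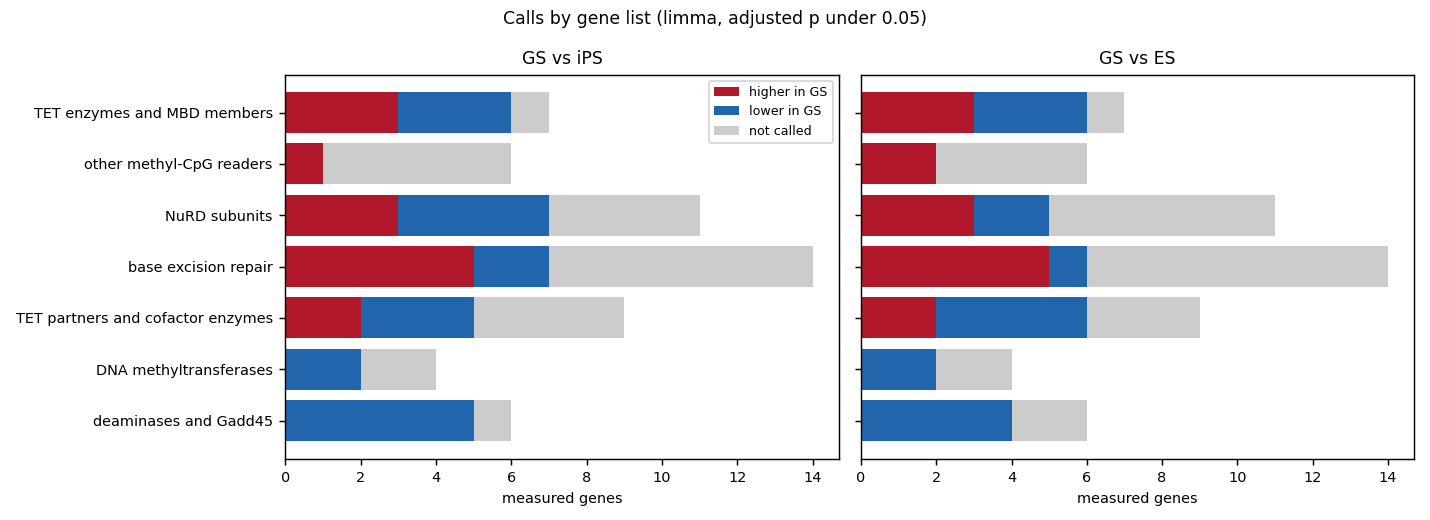
Numbers of measured genes higher in GS, lower in GS or not called against iPS (left) and ES (right) for the 7 members and 6 related lists. Both panels show the 7 members with 3 higher and 3 lower in GS. Of all 19938 genes, 7076 were higher and 3693 lower in GS against iPS, and 5174 and 3437 against ES. None of the 4 DNA methyltransferase or 6 deaminase and Gadd45 genes is higher in GS, though alternatives gave up to 1 DNA methyltransferase gene in either panel.

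Against iPS, the TET partner list had 1 gene higher and 2 lower of 9 in Sox2 mGS, where 23.6% of all genes were called, and 0 higher and 2 lower of 9 in Oct4 mGS, where 13.8% were. Cxxc4, a CXXC-domain gene, was higher in Sox2 mGS than in iPS, at 240 against 189 (0.34 ± 0.10, adjusted p = 0.0211), a call lost under 9 of 35 alternatives, among them leaving out iPS 1, iPS 5, Sox2 mGS 1 or Sox2 mGS 3. Idh2 was lower in Sox2 mGS than in iPS (-1.09 ± 0.27, adjusted p = 0.0081), as was Rybp, a Polycomb subunit gene (-0.74 ± 0.10, adjusted p = 0.00022), and both calls held under all 35 alternatives. In Oct4 mGS, Dppa3, a maternal factor gene that protects methylation in the zygote, was lower than in iPS (-1.80 ± 0.52, adjusted p = 0.031), and so was Rybp (-0.46 ± 0.10, adjusted p = 0.012). The Dppa3 call was lost without iPS 1, iPS 2, iPS 5, Oct4 mGS 1 or Oct4 mGS 2, and the Rybp call without either of those Oct4 mGS lines. In Dnmt mGS, Dmrt mGS and spontaneous mGS against iPS limma called 0 of the 9, where 6.87%, 0.848% and 0% of all genes were called. At an unadjusted p under 0.05 there were 1, 1 and 0 of the 9.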

How the data were processed

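The deposited table held linear intensity values of 28856 probe sets on 46 arrays; the authors' scaling is not given in the sources available here. Only the assembly, mm9, is known, per the submitters' processing notes. The analysis kept 21789 probe sets annotated to a single symbol and dropped 1621 with several and 5446 with none listed, and the brightest probe set stood for each of 19938 genes. Log2 was taken without an offset. The 2 cultures of a line were averaged, and all 23 lines entered 1 limma fit (limma 3.58.1, R 4.3.3, lmFit and eBayes, 15 residual and 2.71 prior degrees of freedom). P-values were adjusted by Benjamini-Hochberg over all genes of a comparison, with a threshold of 0.05. A fold against a group below the background level is the brighter mean over that level. The genes, lists and comparisons were chosen with earlier results of these data known. All members were named; of the related lists, up to 3 called genes in each direction by size; of likeness, the 3 closest genes. The number of arrays limits the precision. Alternatives changed scaling, filters, probe sets, blocks and lines left out; the fit was also tested on simulated data. Figures used Python 3.11.15 and matplotlib 3.10.9.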

Additional observations from a re-analysis of the deposited data

Results flagged for a closer look

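Differences between the induced routes that passed limma's test of a route against the mean of the other 3 are listed as values. Tet1 differed by -0.41 in Sox2 mGS (adjusted p = 0.0473). Tet2 differed by 1.07 in Dnmt mGS (adjusted p = 0.0443) and Tet3 by -0.44 in the same route (adjusted p = 0.00869). Mbd2 differed by -0.72 in Oct4 mGS (adjusted p = 0.0446). Of these, the Tet3 difference was lost only without Dnmt mGS 1 among the 23 lines left out in turn, while the Tet1, Tet2 and Mbd2 calls were lost without 18, 15 and 19 of the 23 lines. The Tet1 call held without ES R1, GS 2, GS 3, Dmrt mGS 2 or Oct4 mGS 2. Tet1 in Sox2 mGS was also not called when Oct4 mGS 1 was read by culture 2 alone, an alternative chosen after the data were seen. No single array stood apart within its group in 56 groups of arrays tested. The 2 cultures of a line lie close together and mask each other there, so a line that stands apart can go unflagged. Tet2 in Sox2 mGS 1, at 1818 and 1890 against 374 to 757 in the other Sox2 mGS arrays, was not flagged.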

How the results depend on the processing

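No difference changed sign in any of 1779 alternative values of the 51 called differences. Many of these values could not change sign. Leaving out a line outside the compared groups, or altering only the estimate of the spread, leaves the difference as it was. Of the 1779 values, 121 lost the call, 98 of them in comparisons without GS. Counts of called genes (of 7) moved as follows. With all 46 arrays as independent samples they were 1 for iPS against ES, 1 for Dmrt mGS, 4 for Sox2 mGS and 5 for Oct4 mGS against iPS, and 4, 1, 5 and 3 for Dnmt, Dmrt, Sox2 and Oct4 mGS against the other routes. With the line as a random block, and likewise with culture number as a replicate block, they were 1 for Dmrt mGS against iPS and 4, 2 and 2 for Dnmt, Sox2 and Oct4 mGS against the other routes. With line number as a replicate block (ES left out) they were 0 for Dnmt mGS and 1 for Sox2 mGS against iPS, and 0 in Sox2 mGS against the other routes, and the Mbd3 call for Sox2 mGS against GS was lost (adjusted p = 0.0583). Fitting only the groups compared gave 0 for Dnmt and Oct4 mGS against iPS and 1, 0 and 0 for Dnmt, Sox2 and Oct4 mGS against the other routes. Quantile normalization gave 0 for Sox2 mGS against the other routes. Reading Oct4 mGS 1 by culture 2 alone, chosen after the data were seen, gave 1 for Dmrt mGS against iPS, and 0 in Sox2 mGS against the other routes.

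Leaving out each line gave 3 to 6 for Sox2 mGS against GS (3 without Sox2 mGS 2), 0 to 1 for Dnmt mGS, 0 to 1 for Dmrt mGS, 1 to 3 for Sox2 mGS and 1 to 3 for Oct4 mGS against iPS, and 0 to 4, 0 to 1 and 0 to 2 for Dnmt, Sox2 and Oct4 mGS against the other routes. The cause of these moves was not tested, apart from fewer lines in each fit. The main fit did not pair samples by line number. Deviations of lines with the same number in other groups correlated from -0.676 to 0.833 (median 0.105). Those of lines with other numbers correlated from -0.854 to 0.788 (median -0.015). Deviations within a group of 2 or 3 lines depend on each other, so these ranges cannot decide whether numbers pair samples. Over all genes, the counts called outside GS ranged most. They were 125 for iPS against ES, with 22 to 2318 under other settings and 40 (without iPS 1) to 900 (without ES R1) on leaving out a line. Against iPS, Dnmt mGS had 1369, with 819 to 5189 under other settings and 279 (without iPS 2) to 2080 (without Dmrt mGS 1). Dmrt mGS had 169, with 7 to 3930, and 17 (without iPS 1) to 322 (without ES R1). Sox2 mGS had 4708, with 3358 to 9162, and 2420 (without Sox2 mGS 3) to 5386 (without ES R1). Oct4 mGS had 2749, with 962 to 7926, and 934 (without iPS 2) to 3614 (without Oct4 mGS 3), and spontaneous mGS had 0, with up to 6 and up to 2. Against the other routes, Dnmt mGS had 3830, with 1835 to 8946, and 542 (without Dnmt mGS 1) to 5434 (without Dmrt mGS 1). Dmrt mGS had 63, with 8 to 1741, and 2 (without Dmrt mGS 3) to 226 (without Oct4 mGS 3). Sox2 mGS had 2822, with 1596 to 7319, and 532 (without Sox2 mGS 3) to 3555 (without Dnmt mGS 3). Oct4 mGS had 212, with 5 to 3365, and 4 (without Oct4 mGS 1) to 1008 (without Oct4 mGS 3). In all 7 comparisons with GS, no line left out moved the count by over 1.5 times. Tet1 and Tet2 in GS, and Tet3 in iPS, lay at or near background, which limits how far their differences can be read.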

Other observations

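Culture 1 and culture 2 of Oct4 mGS 1 differed most among all lines for 5 of the 7 genes, by 0.58 on the log2 scale for Tet2, where the median gap between cultures of a line was 0.07. Of 9 measured testis somatic markers, 3 to 5 were above background in each line.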
